A study of Mus musculus with 4 samples.

Results

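Oxidative phosphorylation was examined in natural killer T (NKT) cells, T cells that recognise lipids presented by CD1d, sorted from the small intestinal lamina propria (SI-LP). The genes were taken by name from the table of counts: every row beginning with *Nduf*, *Uqcr* or *Atp5* or with *Cox4* to *Cox8*, together with *Sdha*, *Sdhb*, *Sdhc*, *Sdhd*, *Cycs* and *Cyc1*. This gave 99 of the 25239 genes in the table. Of these, 87 were structural subunits or electron carriers (including *Cox7a2l*, a factor that joins complexes III and IV), 8 were assembly factors of complex I (*Ndufaf* genes) and 4 were rows named as pseudogenes or copies. The rule used gene names and no measured value. The subunits encoded by mitochondrial DNA do not carry these names and were not analysed here.

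All 4 libraries came from NKT cells of WT mice, labelled C57BL/6Jax, that were injected with a nanobody against ARTC2 before harvest to keep the cells alive during isolation. The cells were sorted as TCRβ+ and CD1d tetramer+, with B220, CD11b, CD11c, CD8 and dead cells gated out. Replicates 3 and 4 belong to the first experiment and replicates 1 and 2 to the second, and the sample codes in the labels also differ between the experiments. No group was untreated or altered, so the data describe levels and their spread. The labels do not say whether the libraries are of separate animals, and any p-value measures only the spread between these samples, which may be technical.

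Oxidative phosphorylation is the last stage of respiration in mitochondria. Complexes I and II pass electrons from NADH and succinate to ubiquinone, complex III hands them to the soluble carrier cytochrome c, and complex IV reduces oxygen, while complexes I, III and IV pump protons that drive ATP synthesis by complex V. T cells shift the balance between this pathway and glycolysis with activation and memory. The transcription factors NRF1, GABP (a member of the ETS family) and YY1 are known to bind promoters of many of its nuclear genes.

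The letters that these factors are known to bind were searched for on both strands of the RefSeq promoters of GRCm38.p6, which run from 250 bases before to 50 bases after the start of a gene. Of the 99 genes 77 had a promoter in that table, 73 of them expressed highly enough to be tested. The NRF1 motif, GCGCATGC, was present in 13 of the 73 promoters (17.8%), against 5.99% of the promoters of 9313 tested genes and 3.05% of those of 27025 genes. The ETS motif, CCGGAAG, was present in 19 (26.0%), against 20.6% and 9.93%. The YY1 motif, AAGATGGCG, was present in 8 (11.0%), against 3.67% and 1.64%. A CCAAT box was present in 45.2% (42.8% of tested genes) and the letters TATAAA in 8.22% (9.33%). In 40 of the 73 promoters none of the NRF1, ETS and YY1 letters were found. These matches describe letters in a window and are not measurements of binding. The following windows of 30 bases, read 5′ to 3′ on the strand of the gene, show the motif (in capitals) in 1 or more genes of each complex, with the NRF1 letters first, then ETS, then YY1. The NRF1 letters read nearly the same on the other strand, so that the motif and its reverse complement, GCATGCGC, can overlap.
*Cycs* (cytochrome c), chr6:50566611-50566640, minus strand: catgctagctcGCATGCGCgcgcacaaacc
*Sdhb* (complex II), chr4:140961206-140961235, plus strand: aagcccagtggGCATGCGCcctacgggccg
*Ndufa11* (complex I), chr17:56717691-56717720, plus strand: acctgcactgcGCGCATGCgcgcacgcctt
*Ndufaf4* (complex I assembly), chr4:24897959-24897988, plus strand: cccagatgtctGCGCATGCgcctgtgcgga
*Cox6a1* (complex IV), chr5:115349102-115349131, minus strand: acaggaacgggGCGCATGCgcgctctcgct
*Atp5g2* (complex V), chr15:102671071-102671100, minus strand: tggctccggccGCGCATGCgcagagccttc
*Uqcr11* (complex III), chr10:80406869-80406898, minus strand: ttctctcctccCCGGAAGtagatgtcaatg
*Sdhd* (complex II), chr9:50603877-50603906, minus strand: ccgtctcctgcCTTCCGGttcacgcttcag
*Cox6b1* (complex IV), chr7:30626124-30626153, minus strand: tcctctcgcagCTTCCGGccagtcggaatt
*Atp5j* (complex V), chr16:84835045-84835074, minus strand: aagtgtaggaAAGATGGCGgagtcttagct

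The libraries held 3882803 to 8732858 counts on genes (median 6360109). The rRNA precursor *Rn45s* took 7.36% to 28.1% of them. All 7 T cell markers (*Cd3e*, *Cd3d*, *Cd3g*, *Cd247*, *Lck*, *Thy1* and *Cd2*) were detected in every library, at 0.128% to 0.372% of the counts. Markers of other cells differed between the libraries. The 21 epithelial markers (such as *Lyz1*, *Tff3* and *Krt19*) took 0.104% and 1.02% of the counts of replicates 1 and 2 and 0.0228% and 3.03% of those of replicates 3 and 4. Markers of plasma cells took 0.655% and 0.839% of the counts of the second experiment and 0.0114% and 0.0387% of those of the first. Markers of B cells, myeloid cells, stroma and mast cells took at most 0.0238% of any library. Replicate 2 had the most counts and replicate 4 the fewest. Because these are bulk samples, fewer cells of a type and less RNA per cell cannot be told apart.

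The 99 genes together took 0.507% of the counts of replicate 1 (95% Wilson interval 0.502% to 0.513%), 1.36% of replicate 2 (1.35% to 1.36%), 0.474% of replicate 3 (0.468% to 0.480%) and 0.843% of replicate 4 (0.834% to 0.852%). The mean was 0.795% ± 0.410 (SD, n = 4). The intervals cover counting error alone, since PCR copies are not independent molecules, and they were narrower than the gaps between libraries. Replicate 2 was highest and replicate 3 lowest. Without *Rn45s* the shares were 0.573%, 1.46%, 0.660% and 1.08%, and replicate 1 was then the lowest. Measured as TPM, which corrects for gene length, the 99 genes made up 1.50%, 3.64%, 1.51% and 2.26% of each library.

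Measured as TPM, most of these genes were among the more abundant messages of the libraries. After a filter of at least 10 counts in at least 2 libraries, 89 of the 99 genes were kept (among 11689 genes in all), and 83 had at least 10 counts in all 4. Among the 11689 the 89 genes had a median percentile of 92.1 by mean TPM and 71.3 by CPM, which does not correct for gene length. By mean TPM 82 of the 89 lay above the median gene. All 79 structural genes that passed lay above it, and 50 were in the top 10%. The assembly factors were lower, with a median percentile of 43.6. The order of the 89 genes by TPM was similar in every pair of libraries, with Spearman's rho between 0.812 and 0.906 across genes, which share a library and are not independent replicates. The same measure over all 11689 genes was 0.628 to 0.809. Only 8089 of those had at least 10 counts in all 4 libraries, so a larger part of them had few counts.

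**Figure D1:**
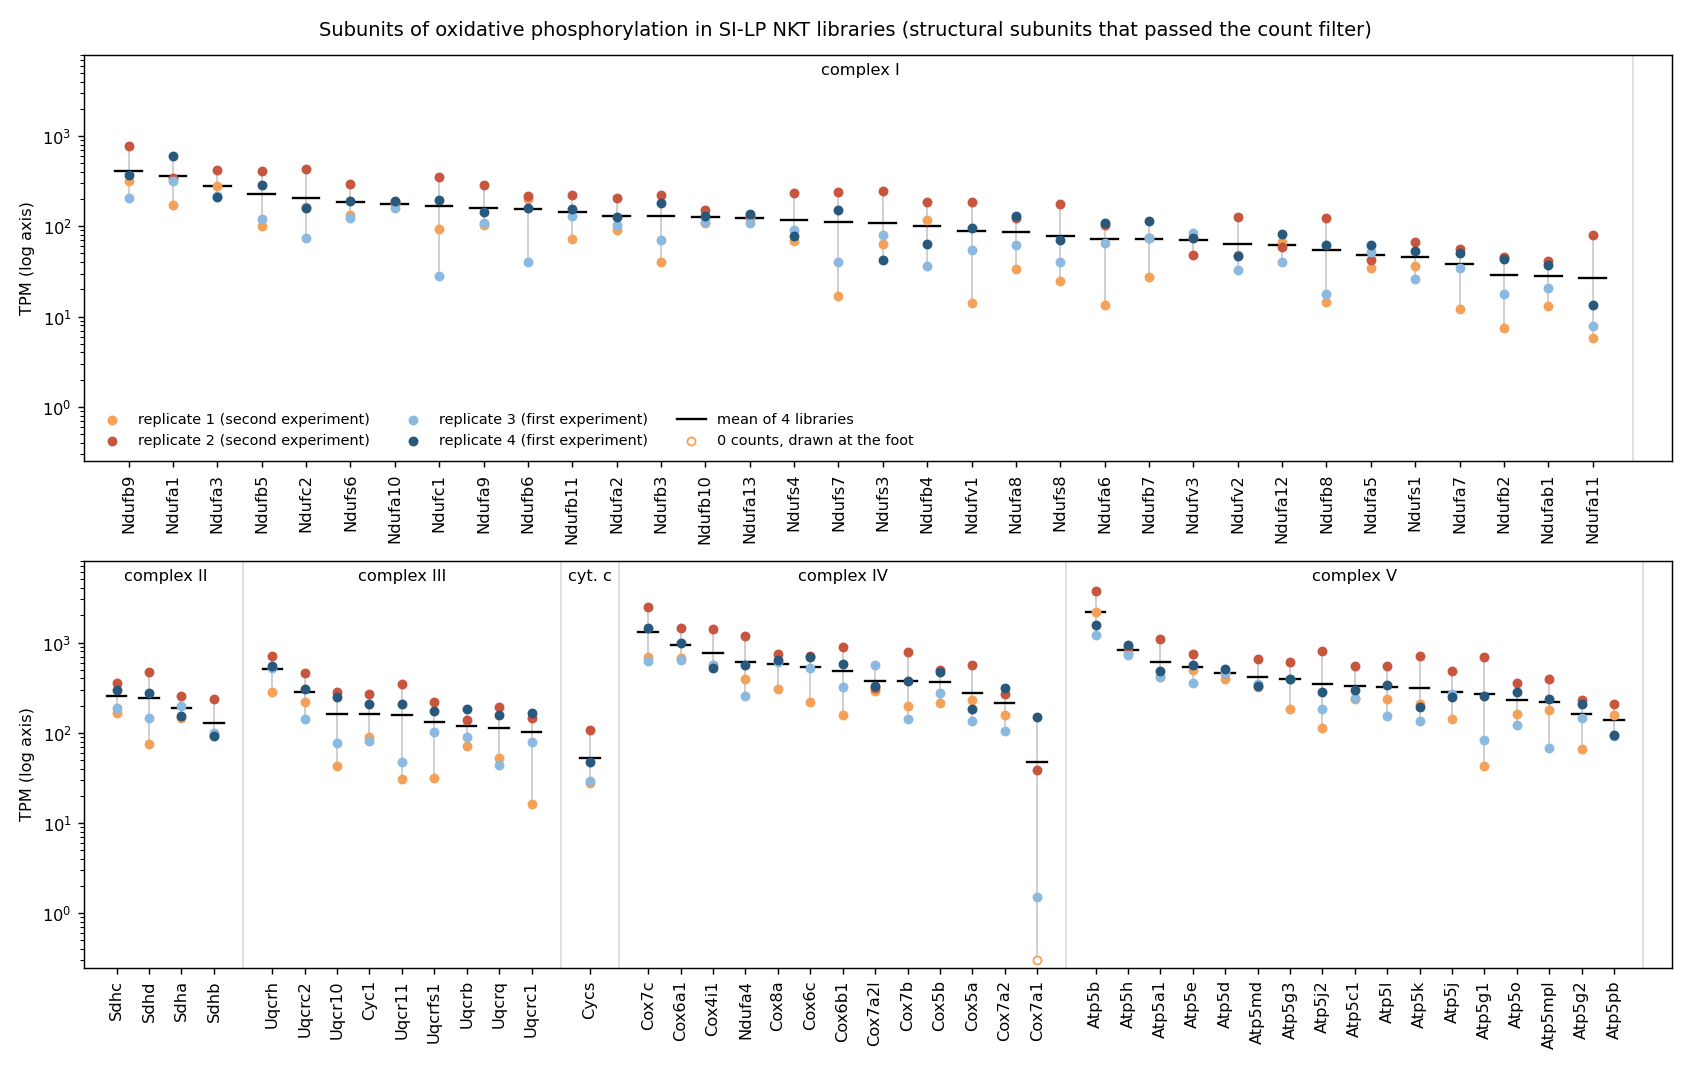
TPM (log axis) of structural genes that passed the count filter, by complex and in order of mean level. Points are single libraries, black lines the mean of the 4 libraries, and an open circle at the foot marks 0 counts. *Atp5b* was the most abundant at a mean of 2176 TPM, and replicate 2 is the highest point for most genes.

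Complex I, which takes electrons from NADH, was represented by 7 core subunits and 28 accessory subunits above the filter. *Ndufs1*, the largest iron-sulfur subunit, had the lowest mean TPM of the core subunits, with 36.3, 67.7, 26.1 and 52.8 TPM in replicates 1 to 4. The core subunits differed widely in how steady they were. *Ndufv1*, which carries the flavin that accepts electrons from NADH, had 14.0, 188, 55.3 and 96.2 TPM, a range of 13.1 times in CPM (counts relative to library size, corrected with TMM factors). *Ndufs7*, an iron-sulfur subunit next to the quinone, had 16.9, 243, 40.3 and 151 TPM. For both genes replicate 1 was lowest and replicate 2 highest. *Ndufs8*, another iron-sulfur subunit of the quinone-binding arm, followed the same order of libraries, with 24.7, 176, 40.1 and 71.4 TPM. *Ndufv2*, an iron-sulfur subunit of the arm that oxidises NADH, had 48.6, 128, 32.9 and 46.7 TPM. *Ndufs3*, a core subunit of the quinone-binding arm, had replicate 4 as its lowest library, at 63.6, 248, 81.0 and 41.9 TPM.

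Among accessory subunits *Ndufb9*, *Ndufa1* and *Ndufa3* were the most abundant. *Ndufb9* had 315, 767, 204 and 372 TPM in replicates 1 to 4. *Ndufa1* had 171, 342, 317 and 601 TPM and was highest in replicate 4. *Ndufa3* had 281, 424, 216 and 212 TPM, with replicates 3 and 4 almost level. *Ndufa11*, a subunit of the membrane arm, had the lowest mean above the filter, with 5.79, 80.0, 7.84 and 13.3 TPM, and its mean of 26.7 ± 35.6 TPM (SD, n = 4) rested on replicate 2. At the other extreme were 3 accessory subunits whose levels hardly moved. *Ndufa10* had 70.5, 73.7, 78.4 and 92.1 CPM, an SD of 0.17 on the log2 scale. *Ndufa13* had 51.8, 54.0, 56.0 and 70.5 CPM (SD 0.20). Because strand was not used in counting and 375 of the 1268 exon bases of *Ndufa13* (29.6%) also belong to *Tssk6* on the opposite strand, its counts are uncertain. *Ndufb10* had 24.4, 33.1, 30.8 and 35.9 CPM (SD 0.24). *Ndufa10*, *Ndufa13* and *Ndufb10* were named because their SDs were among the smallest, and the SDs of *Ndufv1* and *Ndufs7* were among the largest. The contrast between them was set by this choice, so no conclusion is drawn from it. Of the assembly factors, *Ndufaf4* had the largest SD among the genes with at least 10 counts in every library, 2.23, with 2.22, 57.5, 3.35 and 30.4 CPM.

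Complex II, the succinate dehydrogenase that also serves the citric acid cycle, was complete, with mean levels from 130 to 252 TPM. The membrane anchor *Sdhc* had 167, 358, 190 and 295 TPM in replicates 1 to 4. The other anchor, *Sdhd*, had 75.8, 475, 147 and 273 TPM. The flavoprotein *Sdha*, which oxidises succinate, had 145, 255, 199 and 153 TPM, and the iron-sulfur subunit *Sdhb* had 93.3, 235, 98.7 and 92.1 TPM. *Sdhc* and *Sdha* were above *Sdhb* in 4 of 4 libraries, while *Sdhc* was above *Sdhd* in 3 of 4. The order of the 2 anchors therefore did not hold beyond the spread between libraries.

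Complex III passes electrons from ubiquinol to cytochrome c. Its most abundant gene was *Uqcrh*, a small accessory subunit, with 283, 710, 519 and 547 TPM in replicates 1 to 4. *Uqcrc2*, a core protein facing the matrix, had 222, 464, 142 and 305 TPM. Its partner *Uqcrc1* had 16.3, 145, 78.6 and 166 TPM and was lower than *Uqcrc2* in every library, by 13.6 times in replicate 1 and by 1.80 to 3.21 times in the others. Of the exon bases of *Uqcrc2*, 12.1% are shared with *Pdzd9* on the opposite strand. *Cyc1*, cytochrome c1, had 89.3, 267, 80.2 and 210 TPM, and *Uqcrfs1*, the Rieske iron-sulfur protein, had 31.7, 218, 102 and 176 TPM. Both catalytic subunits were higher in replicates 2 and 4 than in replicates 1 and 3. *Uqcr10*, a small accessory subunit, had 42.8, 284, 76.3 and 250 TPM. *Uqcr11*, another small subunit and the gene of the ETS window above, had 30.5, 347, 47.9 and 207 TPM. Cytochrome c itself (*Cycs*, GRCm38 chr6:50562563-50566569, minus strand) had a lower mean than every gene of complex III, with 27.7, 107, 29.1 and 47.3 TPM.

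Complex IV, cytochrome c oxidase, contained the second most abundant gene, *Cox7c* (GRCm38 chr13:86044798-86046795, minus strand), with 686, 2464, 624 and 1451 TPM in replicates 1 to 4. A pseudogene row of this subunit, *Cox7c-ps1*, was 13.3 to 70.4 times lower in TPM, and reads that could belong to both make these values uncertain. *Cox6a1* had 677, 1431, 640 and 982 TPM. *Cox4i1*, a subunit known to bind ATP, had 566, 1414, 561 and 524 TPM, with replicate 2 apart from the rest. The factor *Cox7a2l* stood out by its order of libraries. It was highest in replicate 3, with 112, 116, 263 and 154 CPM, while by CPM the other 12 complex IV genes that passed the filter were highest in replicate 2 (7 genes) or replicate 4 (5 genes).

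Several subunits of complex IV come in a common form and in forms restricted to heart, muscle, lung, testis or other tissues. In these libraries the common forms made up nearly all of the message. *Cox6a1* made up 99.98% ± 0.0312 of the COX6A family (SD, n = 4), *Cox4i1* 99.4% ± 1.12 of COX4, *Cox6b1* 98.5% ± 2.43 of COX6B and *Ndufa4* 99.97% ± 0.0514 of NDUFA4. *Cox7b* and *Cox8a* made up 100% of their families in all 4 libraries. The restricted forms *Cox7b2*, *Cox8b* and *Cox8c* had 0 counts in all libraries, which allows at most 2.14% of COX7B and at most 1.13% of COX8 for any one of these genes in any library (3 counts). *Cox6a2*, of heart and muscle, had 2 counts in replicate 2 and none elsewhere, and *Ndufa4l2*, a gene induced in hypoxia, had 4 counts in replicate 2 only. The exception was COX7A. *Cox7a1*, the form of heart and muscle (GRCm38 chr7:30184171-30186030, plus strand), had 0, 48, 1 and 88 counts in replicates 1 to 4, or 0%, 12.6%, 1.40% and 32.1% of the family, beside *Cox7a2*, the common form, with 156, 267, 106 and 316 TPM. *Cox6b2*, known from testis, had 0, 100, 0 and 5 counts, and *Cox4i2*, known from lung, had 14 counts in replicate 4 only. Together the restricted forms had 0, 154, 1 and 107 counts. They were thus found nearly only in replicates 2 and 4, the libraries with the larger share of epithelial markers (1.02% and 3.03% of counts). Markers of heart and skeletal muscle had 58, 350, 0 and 47 counts in replicates 1 to 4, or 8.04, 33.5, 0 and 11.8 CPM. By summed CPM, replicates 2 and 4 were thus also the highest libraries for these markers. *Tnnt2*, the only 1 of them above the count filter, had 8.04, 25.9, 0 and 5.77 CPM. For this gene replicate 1 was above replicate 4, so the order of the sums rests on markers with few counts. Between 5 and 9 of the 9 muscle markers were at 0 in each library. The part of other cells in these counts was not tested.

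Complex V, the ATP synthase, contained the most abundant gene. *Atp5b* (GRCm38 chr10:128083307-128090388, plus strand), the catalytic beta subunit of the F1 head, had 2202, 3729, 1204 and 1570 TPM in replicates 1 to 4, the highest level of the 99 genes in every library. The alpha subunit *Atp5a1*, with which it forms the head in equal number, had 417, 1085, 420 and 482 TPM. The ratio of *Atp5b* to *Atp5a1* was 5.28, 3.44, 2.87 and 3.26, or 3.71 ± 1.07 (SD, n = 4). The message of beta was therefore above that of alpha in 4 of 4 libraries, by more than the spread of the ratio. The other F1 subunits were below *Atp5b* in every library. *Atp5c1*, the gamma subunit that rotates in the head, had 236, 543, 243 and 299 TPM. *Atp5d*, the delta subunit, had 393, 458, 465 and 508 TPM and was one of the steadiest genes, with an SD of 0.30 on the log2 CPM scale. *Atp5e*, the epsilon subunit, had 494, 740, 353 and 558 TPM. *Atp5h*, subunit d of the stalk, had 769, 896, 735 and 947 TPM, with an SD of 0.24. *Atp5pb*, subunit b of the stalk, had the lowest mean of the complex, with 156, 211, 91.1 and 94.5 TPM. Of its exon bases 11.3% are shared with *Wdr77* on the opposite strand.

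Subunit c, which forms the rotor ring of complex V, is encoded by *Atp5g1*, *Atp5g2* and *Atp5g3*, which are known to give the same mature protein. *Atp5g3* was the largest contributor on average, with 62.5%, 39.5%, 63.1% and 45.7% of the TPM of the family in replicates 1 to 4. *Atp5g1* (GRCm38 chr11:96072793-96075694, minus strand) made up 14.6%, 45.6%, 13.5% and 29.8%, and *Atp5g2* made up 22.9%, 14.9%, 23.4% and 24.5%. In replicate 2 *Atp5g1* was thus ahead of *Atp5g3*. *Atp5g1* itself ranged 16.0-fold, with 12.3, 197, 29.7 and 89.3 CPM, an SD of 1.74 on the log2 scale. Over the same libraries *Atp5g3* had 44.1, 142, 116 and 114 CPM and *Atp5g2* had 14.4, 48.1, 38.4 and 54.7 CPM.

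**Figure D2:**
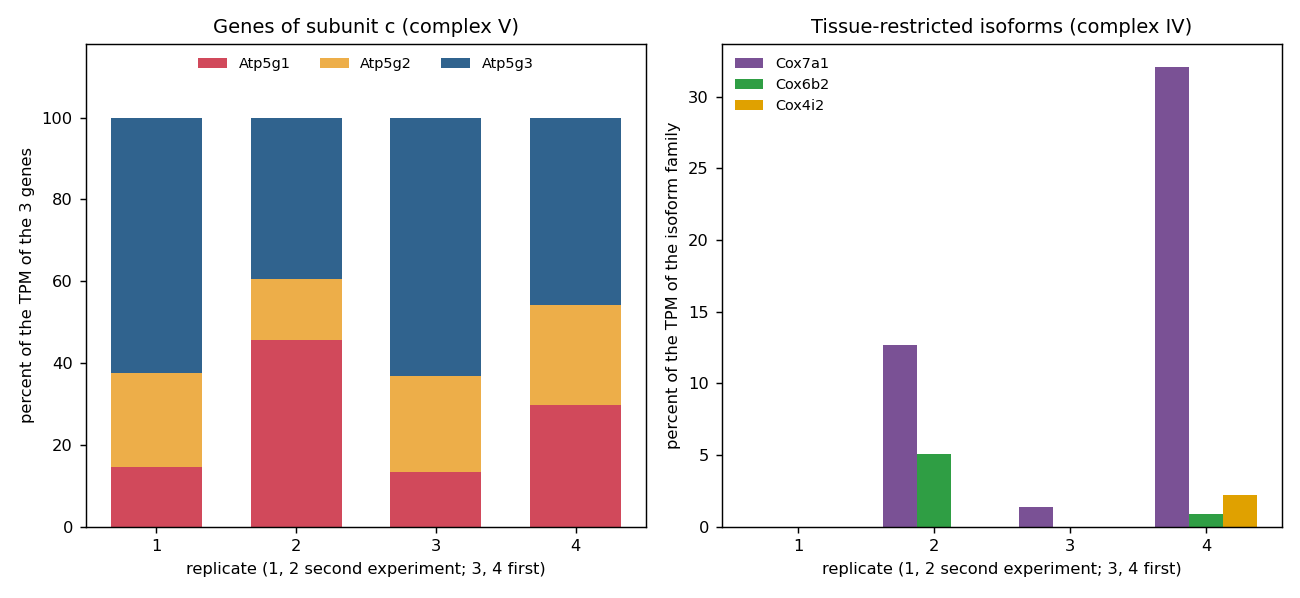
Left, share of *Atp5g1*, *Atp5g2* and *Atp5g3* in the TPM of the 3 genes of subunit c (percent) for replicates 1 to 4. Right, share of 3 tissue-restricted genes in the TPM of their complex IV isoform family (percent), where *Cox7a1* reached 12.6% in replicate 2 and 32.1% in replicate 4.

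There were 10 genes that did not pass the filter. Apart from the isoforms given above (*Cox4i2*, *Cox6a2*, *Cox6b2*, *Cox7b2*, *Cox8b*, *Cox8c* and *Ndufa4l2*), these were the rows *Ndufa11b* (0 counts in all libraries) and *Ndufb4c* (6, 3, 0 and 1 counts) and the structural subunit *Ndufs5*. *Ndufs5* encodes an accessory subunit of complex I, at GRCm38 chr4:123712710-123718186 on the minus strand, and it had 0 counts in all 4 libraries. Of its 509 exon bases, 484 (95.1%) are also annotated to the row *Ndufs5-ps* on the same strand. A read pair that falls on exons of both rows is not counted for either under the default of featureCounts, so the level of *Ndufs5* cannot be read from this table. The row *Ndufs5-ps*, which is annotated on 2 chromosomes, had 114, 44, 4 and 9 counts.

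The experiments were then compared as a measure of replicate error, since the condition was the same in both. Of the 89 genes tested, 0 passed an adjusted p of 0.05 in edgeR's quasi-likelihood test, and 0 of 11689 genes overall did (0%). At an unadjusted p under 0.05 there were 0 of the 89 genes and 248 of all genes. DESeq2 called 0 of the 89 and 41 of the 11689 (0.351%), with 0 and 519 at an unadjusted p under 0.05. The median difference of the second minus the first experiment was 0.10 on the log2 scale over the 89 genes, beside 0.03 over all genes. On simulated counts with a dispersion of 0.05 the test recovered 183 of 194 genes changed by 2 log2 units, but with the dispersion of these libraries 0 of 190, so that even such changes could not have been called. The biological coefficient of variation was 0.976. Single genes had wide errors: *Atp5b* differed by 0.79 ± 0.69 (SE) and *Cycs* by 0.51 ± 0.86, both with an adjusted p of 0.9997 in edgeR.

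Libraries of the same experiment also differed from each other. Replicate 2 was above replicate 1 for 84 of the 89 genes, where 52.8% of all genes tested were. Replicate 4 was above replicate 3 for 75 of the 89, where 52.0% of all genes were. Both held for 72 of the 89, against 35.2% of all genes. Each is a difference between 2 single libraries, with no replicate and no test. The genes that were lower in both were *Ndufv3*, an accessory subunit of complex I, and the assembly factor *Ndufaf3*, which were outside the rule for naming and were singled out after their values were seen. A difference of over 1 log2 unit was found for 62 of the 89 genes in the second experiment (34.1% of all genes) and for 33 in the first (30.6%). In the first experiment the share with so large a difference was therefore near that of all genes. The median difference was 1.34 on the log2 scale for replicate 2 minus replicate 1 (0.13 over all genes) and 0.69 for replicate 4 minus replicate 3 (0.08 over all genes). Replicate 2 was the highest library for 58 genes, replicate 4 for 26, replicate 3 for 3 and replicate 1 for 2.

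**Figure D3:**
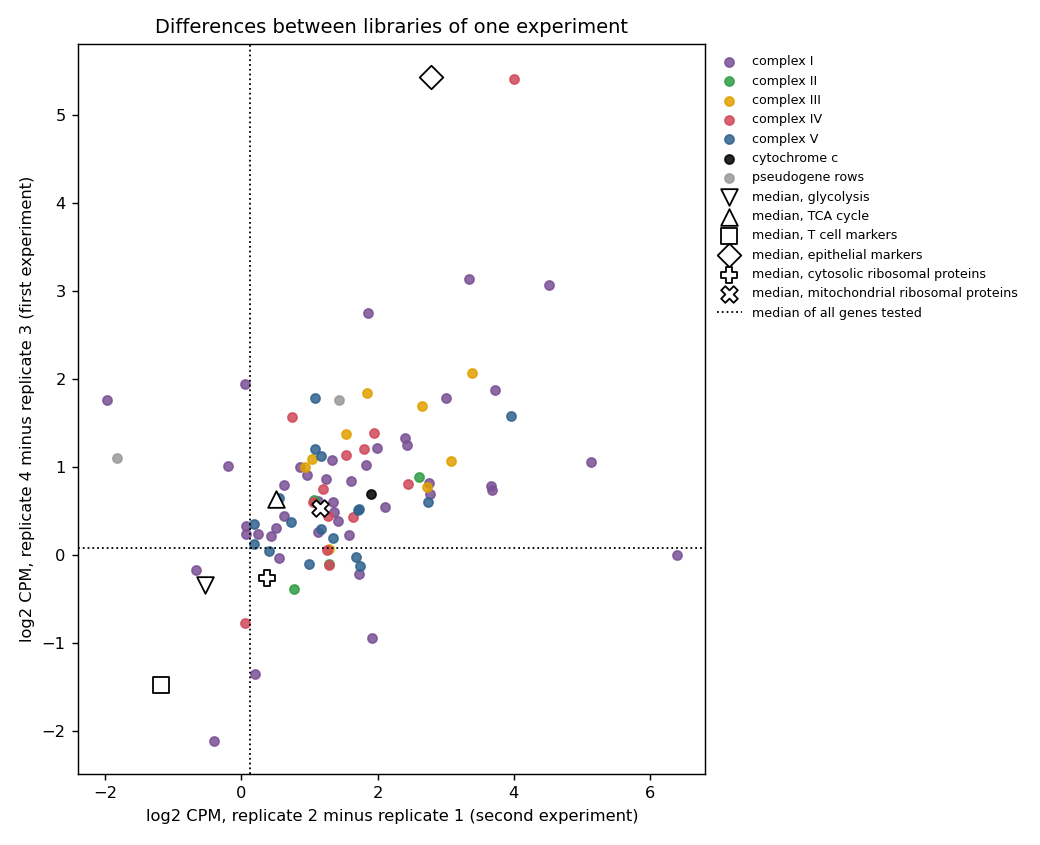
Each filled point is 1 of the 89 tested genes, placed by its log2 CPM difference between replicates 2 and 1 (horizontal) and between replicates 4 and 3 (vertical) and coloured by complex. Open symbols are medians of other gene lists and dotted lines are medians of all genes tested (0.13 and 0.08). Most points lie right of and above these lines, the medians of glycolysis and of T cell markers lie to the lower left, and the farthest points include genes with 0 or 1 counts in a library (such as *Cox7a1*), whose position depends on the prior count of 2.

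The medians of these differences are given by complex, with no test. Single genes of the groups overlapped. For replicate 2 minus replicate 1 the core subunit *Ndufs1* of complex I had 0.86 log2 units and the F1 subunit *Atp5a1* of complex V had 1.34. The 2 core subunits of complex III (*Cyc1* and *Uqcrfs1*) had medians of 2.13 and 1.07 log2 units for the second and the first experiment. The 7 core subunits of complex I had 1.91 and 0.78. The accessory subunits had 1.84 and 1.09 in complex III (7 genes, *Uqcrc1* and *Uqcrc2* among them) and 1.34 and 0.71 in complex I (28 genes). The 12 subunits of complex IV had 1.41 and 0.78 (1.28 and 0.75 with *Cox7a2l*), and complex II had 1.17 and 0.26. In complex V the F0 and stalk subunits had 1.43 and 0.51, while the 5 subunits of the F1 head and shaft had 0.72 and 0.29, the lowest median of these groups in the second experiment. Summed over the structural genes, complex III had 310, 937, 454 and 919 CPM in replicates 1 to 4, a range of 3.02 times. Complex V had 2611, 5064, 2473 and 3171 CPM, a range of 2.05 times. Complex I had 905, 2158, 1086 and 1699 CPM, complex II 269, 654, 442 and 499 CPM, and complex IV 866, 2223, 1245 and 1742 CPM. Replicate 1 or 3 was the lowest and replicate 2 the highest in every complex.

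The SD of log2 CPM over the 4 libraries had a median of 0.84 over the 89 genes (quartiles 0.57 and 1.15) and 1.02 over all genes, and 61 of the 89 lay under the latter. The order turned when genes under 10 counts in any library were left out, with medians of 0.83 over 83 of these genes and 0.75 over 8089 genes. The differences within experiments showed almost no relation to gene length across the 89 genes (Spearman's rho -0.003 and -0.13) and a weak negative one to the mean log2 CPM (-0.24 and -0.31, beside -0.26 and -0.34 over all genes). These are descriptions across genes that share libraries. Genes with the NRF1 letters in their promoter had median differences of 1.82 and 0.69 log2 units, and those without had 1.34 and 0.61. For the ETS letters the medians were 1.29 and 0.52 with and 1.56 and 0.74 without, and for the YY1 letters 1.74 and 0.52 with and 1.34 and 0.69 without.

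Other lists of genes moved differently between the same libraries, and all are given as medians with no test. Of 17 genes of the citric acid cycle, such as *Mdh2*, malate dehydrogenase, and *Cs*, citrate synthase, 13 were higher in replicate 2 than 1 and 13 in replicate 4 than 3, with medians of 0.51 and 0.63 log2 units. Of 78 mitochondrial ribosomal proteins 57 and 55 were, with medians of 1.16 and 0.54. Of 8 tested carriers of ATP, phosphate and protons 6 and 5 were, with medians of 0.98 and 0.16. The 8 included *Slc25a3*, the phosphate carrier, and *Slc25a5*, an ADP/ATP carrier. *Ucp2*, the most abundant carrier by TPM, was the only 1 lower in both comparisons, with 928, 619, 890 and 699 CPM in replicates 1 to 4. Among 36 tested assembly factors outside the *Ndufaf* genes 24 and 21 were higher, with medians of 1.18 and 0.24. *Cox17*, a copper chaperone of complex IV, was 1 of the 36. Glycolysis went the other way. Of its 19 genes only 7 and 5 were higher, with medians of -0.53 and -0.34, and 10 of 19 were highest in replicate 3. *Ldha*, lactate dehydrogenase, the most abundant of them, was an exception, with 461, 804, 385 and 494 CPM in replicates 1 to 4. *Aldoa*, aldolase, had 254, 172, 400 and 230 CPM and *Pkm*, pyruvate kinase, 205, 135, 295 and 194 CPM. Cytosolic ribosomal proteins had medians of 0.37 and -0.26.

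Among 18 regulators of mitochondrial biogenesis 11 were higher in replicate 2 than 1 and 13 in replicate 4 than 3, with medians of 0.33 and 0.37 log2 units, and 8 of them were higher in both comparisons. *Gabpa*, the DNA-binding subunit of GABP and the most abundant of them, had 212, 178, 104 and 111 CPM. It shares 123 exon bases with *Atp5j* on the opposite strand, which makes the counts of both uncertain. Its partner *Gabpb1* had 232, 74.4, 198 and 79.0 CPM. The regulators of the other motifs searched, named for that reason, were *Nrf1* with 98.2, 31.6, 37.9 and 39.1 CPM and *Yy1* with 73.8, 74.1, 120 and 142 CPM. Of these 4 genes *Yy1* was higher in both comparisons, by 0.005 and 0.24 log2 units. The coactivator *Ppargc1b* had 7.07, 59.8, 30.8 and 168 CPM in replicates 1 to 4, the mitochondrial DNA factor *Tfam* had 2.63, 32.7, 21.9 and 36.6 CPM, and the nuclear receptor *Esrra* had 3.74, 23.3, 4.46 and 15.6 CPM. In these 3 genes, which are outside the rule for naming and were chosen after their values were seen, replicates 2 and 4 were both above replicates 1 and 3. *Polg2*, which was more abundant than these by TPM, went the other way, with 122, 18.5, 88.4 and 24.1 CPM. Of the 18 regulators 2 were lower in both comparisons.

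Markers of T cells and of epithelium differed between the same libraries. All 7 T cell markers were lower in replicate 2 than in replicate 1 and in replicate 4 than in replicate 3, with medians of -1.18 and -1.47 log2 units and sums of 3112, 1066, 4559 and 1689 CPM in replicates 1 to 4. Of 21 epithelial markers 18 and 21 were higher, with medians of 2.79 and 5.42 log2 units and sums of 1045, 8521, 279 and 29525 CPM. At most 1 epithelial marker was at 0 in any library. The 2 libraries with more epithelial and less T cell message were therefore also the 2 with more of the oxidative phosphorylation genes. The ranking was not the same, since replicate 4 had the most epithelial message and replicate 2 the most message of oxidative phosphorylation. The lead of replicate 4 rested mostly on 1 marker, *Lyz1*, with 301, 338, 10.5 and 21151 CPM in replicates 1 to 4. Markers of myeloid cells (76.1, 106, 49.3 and 202 CPM) and of mast cells (1.39, 62.9, 2.01 and 28.6 CPM) were also highest in replicates 2 and 4. The sums for plasma cells, B cells and stroma were not. The part of epithelial message or of other cells in these differences was not tested.

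**Figure D4:**
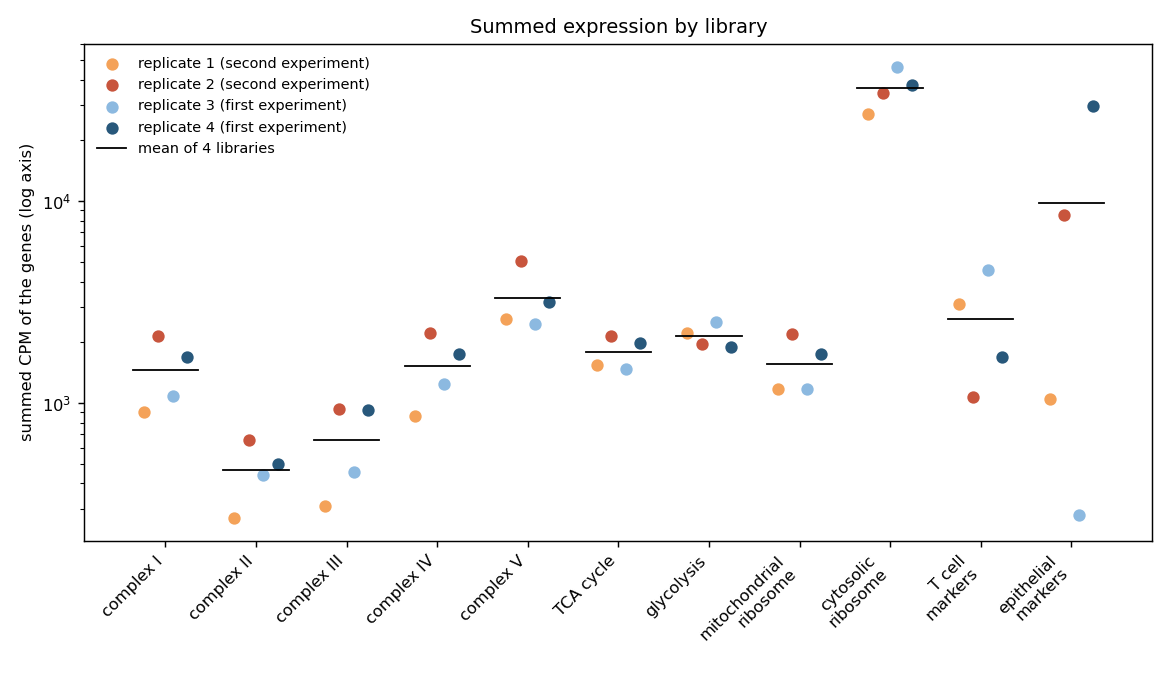
Summed CPM (log axis) of the genes of complexes I to V, of other metabolic and ribosomal lists, and of T cell and epithelial markers, with 1 point per library and a line at the mean of the 4. Replicate 2 has the highest point for every complex, while epithelial markers are lowest in replicate 3 (279 CPM) and highest in replicate 4 (29525 CPM), and T cell markers lowest in replicate 2 (1066 CPM) and highest in replicate 3 (4559 CPM).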

How the data were processed

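RNA-seq libraries of SI-LP NKT cells (4) were analysed from the table of raw counts that the authors deposited. Of its 6 library columns, 2 match no sample label and were not used. According to the methods and the file header, the authors used HISAT2 for alignment and featureCounts 1.6.4 for counting read pairs per gene (primary alignments, exons, no strand). Deposited positions are those of GRCm38, which is used here, although the methods name GRCm39. The labels name a HiSeq, the methods a NovaSeq.

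For TPM, the exon length of each gene was read from the deposited table, where it is another kind of value and no measurement. TPM compares genes, CPM (TMM factors) compares libraries. Counts were tested with edgeR 4.0.16 (prior count 2, at least 10 counts in at least 2 libraries, Benjamini-Hochberg over all 11689 genes), and with DESeq2 1.42.0 as an alternative. A count of 3, taken as the floor, was worth 0.287 to 0.753 CPM. The test was tried on simulated data.

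Named genes were, per complex, core or F1 subunits, the 3 highest and the lowest by TPM, isoform families and cytochrome c. Also named were the 5 largest and 5 smallest SDs, genes called between experiments and genes failing the filter. The rule for other lists was the 2 to 4 highest by TPM, but their order was not always kept. An item that the rule names is not reported here. The members and lists were chosen with earlier results of these data known. Alternatives tried were DESeq2, other size factors, filters, prior counts, lengths and ranks, structural subunits alone, shares that leave out the top 10 genes, and dropping each replicate in turn. R 4.3.3, limma 3.58.1, Python 3.11.15, pandas 2.3.3, numpy 2.4.6, scipy 1.17.1 and matplotlib 3.10.9 were used.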

Additional observations from a re-analysis of the deposited data

Results flagged for a closer look

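In 9 of 57 sets of values examined (named genes and sums over the 4 libraries), 1 library stood farther from the other 3 than Dixon's 95% limit for the gap as a share of the range, and chance gives this in about 1 of 20 sets. For *Cox4i2*, *Ndufa4l2* and *Cox6a2* the other 3 libraries were at 0, so that the gap is the whole range for any count and the number of sets cannot be read against chance. Replicate 2 was high for *Cox4i1* (351 CPM, the others 144 to 174), *Ndufa11* (69.1 CPM, the others 5.13 to 14.3) and *Ndufa3* (48.4 CPM, the others 30.1 to 32.8). Replicate 1 was low for *Cox8a* (55.1 CPM, the others 132 to 141) and *Uqcrh* (51.4 CPM, the others 115 to 126). The other 4 are tissue-restricted isoforms at or near 0: *Cox6b2* in replicate 2 (9.58 CPM, the others 0 to 1.25), *Cox4i2* in replicate 4 (3.51 CPM, the others 0), *Ndufa4l2* in replicate 2 (0.383 CPM, the others 0) and *Cox6a2* in replicate 2 (0.192 CPM, the others 0). The last is below the 3 counts taken as the smallest level.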

How the results depend on the processing

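The count of 0 genes called between the experiments held under each alternative run, DESeq2 included. Without a filter edgeR called 60 genes overall and still 0 of these. Ranked by CPM in place of TPM, the median percentile of the genes fell to 71.3. The median difference of the second minus the first experiment ran from -0.73 (without replicate 2) to 0.62 (without replicate 1) when single libraries were left out, so it has no stable sign. The cause was not tested. The medians within experiments kept their direction, but scaling by library size alone moved the medians of all genes to 0.39 and 0.40 log2 units and raised those of these genes with them. The median SD of log2 CPM of these genes was below that of all genes (0.84 and 1.02) but above it once genes under 10 counts in any library were left out (0.83 and 0.75). The other alternatives moved the remaining values of these genes by less than the spread between libraries (70 summary values and 342 levels). No paired analysis was possible because the libraries analysed here share a condition. Total counts of 3882803 to 8732858 leave levels under 0.287 to 0.753 CPM (3 counts) out of reach.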
